A study of Solanum lycopersicum with 12 samples.

Results

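Sections of tomato primary root that held a lateral root primordium midway through the cortex (stage 4) were compared with sections of the differentiation zone that held no lateral root (control). The 2 groups are defined by their labels, and the comparison was chosen with earlier results of these data known. It uses 4 of the 12 libraries of a developmental series, 2 of stage 4 and 2 of control. The other 8 libraries come from stages 1, 2, 3 and 5, with 2 libraries each. Both groups came from seedlings of the cultivar M82 grown on agar plates, with no treatment, and both carried DR5::VENUSx3-NLS. This reporter drives a nuclear yellow fluorescent protein from a synthetic promoter that responds to auxin, and its fluorescence was used to judge the stage before the section was cut out and frozen. Plant age, and how many plants went into a library, are not given in the sources used here. A section holds the surrounding root as well as the primordium, so in these bulk libraries a change in the number of cells of a type and a change in RNA per cell cannot be told apart.

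Lateral roots begin in the pericycle, the cell layer around the vascular tissue, where auxin signalling marks founder cells that then divide. The young primordium forms a new meristem while it is still inside the parent root and has to pass the endodermis, the cortex and the epidermis, whose cells yield or separate in front of it. At stage 4 the primordium had left the endodermis behind and was still covered by outer cortex and epidermis. Genes are identified in the deposited table by Solyc locus tags, and none of the 34027 tags could be matched to a gene name in the tables used here. The tissue labels could therefore not be checked against cell type markers, and pathways are not named.

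Stage 4 replicates 1 and 2 had 5161298 and 5897702 counts, against 4154467 and 2641164 counts in control replicates 1 and 2. Over the 12 libraries totals ran from 1948144 to 6196272. The kit reads transcripts from their 3′ end, so levels were not divided by transcript length. They are given as CPM, the count scaled to the size of the library, with TMM factors, which are set by the genes that differ least between libraries. Nothing in the labels says that the duplicates came from separate batches of plants, so p-values measure the spread between these libraries, which may be technical. At least 1 count was found for 21912 and 22117 genes at stage 4, against 20918 and 20079 genes in control. After thinning every library at random to the size of the shallowest, these numbers were 20404 and 20430 at stage 4, against 19788 and 19577 in control. The 100 genes with the most counts held 21.3% and 20.5% of the counts at stage 4, against 25.3% and 28.6% in control. The groups did not overlap in genes detected at equal depth or in the share of the top 100 genes. They did overlap in the share of the top 1000 genes, at 58.2% and 56.9% in the stage 4 libraries, against 56.3% and 58.7% in control. Likewise, 50% of the counts were held by 605 and 663 genes at stage 4, against 690 and 580 in control. With 2 libraries against 2 a two-sided exact permutation test cannot go below p = 0.333, which is the value it gave for genes detected and for the top 100 genes; for the number of genes holding 50% of the counts it gave an exact p = 1.

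The question of the comparison was how gene expression in the root section differs once a primordium lies midway through the cortex. Among 18357 genes tested with edgeR's quasi-likelihood test, 6040 (32.9% of the genes tested) had an adjusted p-value under 0.05 (Benjamini-Hochberg), of which 3553 (19.4%) were higher and 2487 (13.5%) were lower at stage 4. The median log2 change of all tested genes was −0.01 with TMM scaling, which sets this centre, and −0.06 with DESeq2 size factors, so rises and falls are relative to the bulk of genes. Both stage 4 libraries lay above both control libraries for 6359 genes (34.6% of the genes tested) and below them for 5702 (31.1%). All 3553 genes called higher, and 2479 of the 2487 called lower, were separated in this way. The count rested in part on the first stage 4 library: without stage 4 replicate 1 it was 3289 genes (2402 higher, 887 lower), and without stage 4 replicate 2 it was 4974 (3013 higher, 1961 lower). In such fits the lone library is assumed to vary like the duplicates of the other groups.

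**Figure D1:**
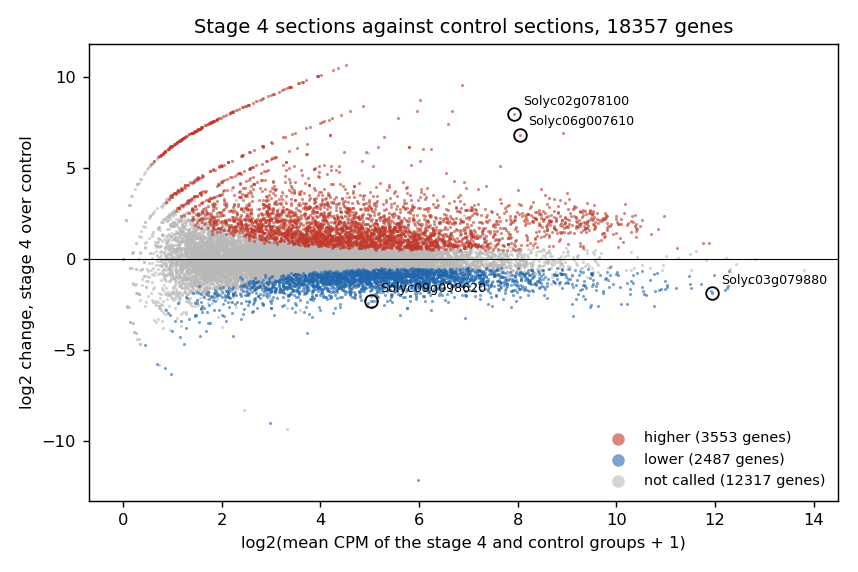
Each point is a gene, with the mean level in the 4 libraries compared on the x axis (log2 of CPM + 1) and the log2 change, stage 4 over control, on the y axis. Genes called higher (3553) are red, genes called lower (2487) blue and the others grey, and the 4 genes described one by one are circled. The curved bands at the upper left are genes with only a few counts in control, whose fitted change is not a reliable size.

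Rises were larger than falls by their medians. In 427 of the 3553 genes called higher, both control libraries were at or under the detection floor of 3 counts, which gives no reliable fold. Over the other 3126, the median log2 change was 1.58 (quartiles 1.09 and 2.18), and the largest was 7.94. Genes with a single control library at or under the floor were kept, among them the gene with the largest rise (3 counts in control replicate 2). The control libraries were shallower than those of stage 4, and fold sizes of the 2 directions were not compared at equal depth. In 29 of the genes called lower, both stage 4 libraries were at or under the floor. The other 2458 had a median log2 change of −1.13 (quartiles −1.47 and −0.87), and the strongest fall was −4.04. Rises of more than 4-fold were found for 1008 genes (32.2% of the 3126), and falls of more than 4-fold for 171 genes (6.96% of the 2458). Rises of more than 8-fold were found for 252 genes, and falls of that size for 13. The median standard error of a called log2 change was 0.269 for rises and 0.275 for falls. These are errors of called genes only, which were chosen on change relative to error, so precision was not compared between the directions.

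**Figure D2:**
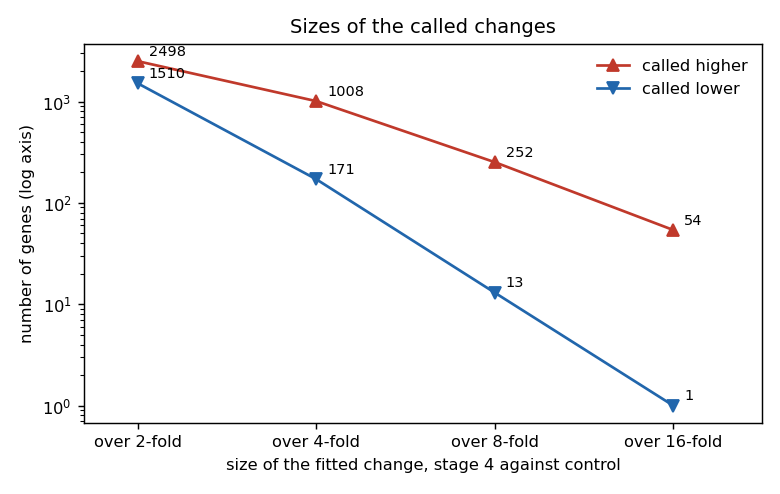
Number of genes (y, log axis) whose fitted change between stage 4 and control was past 2-, 4-, 8- and 16-fold (x), for genes called higher (upward triangles) and lower (downward triangles). Genes at or under 3 counts in both libraries of the lower group are left out; 2498 rises and 1510 falls were past 2-fold, and the ratio of rises to falls grows with fold size.

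Calls depended on the level of the gene. The tested genes were ranked by mean level over all 12 libraries and cut into 5 classes of equal size. In the lowest class (up to 4.47 CPM), 420 genes were higher (11.4%) and 106 lower (2.89%). In the highest class (49.3 CPM and above), 1081 were higher (29.4%) and 952 lower (25.9%). The middle class had 667 higher (18.2%) and 481 lower (13.1%). The share of genes called thus grew with level in both directions, and the ratio of rises to falls was largest in the lowest class. The median log2 change of all genes of a class was 0.13 in the lowest class and −0.08 in the highest. The filter and the ranking drew on all groups, of which control is the only one without lateral roots, and the control libraries were shallower than those of stage 4. The part of the filter, the ranking and the depth in this ratio was not tested.

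A set of genes was barely present in control and readily counted at stage 4. Among the tested genes, 795 were at or under 3 counts in both control libraries. Such a gene could pass the filter on low counts only through another group. Of these, 630 were above 3 counts in both stage 4 libraries, and 424 of the 630 were called higher. The 630 were chosen on the libraries that the test contrasts, so their calls are no separate support. The reverse, more than 3 counts in both control libraries and at most 3 in both stage 4 libraries, was found for 40 genes, of which 19 were called lower. Over all tested genes, 19.4% were called higher and 13.5% lower. The control libraries were the shallower ones, which lowers their chance to pass a floor in counts. After thinning to equal depth, the 2 numbers were 650 and 240. Among tested genes, those at the floor in control were thus still the more frequent kind, by a smaller margin. The filter could admit a gene through any group, and control is the only group without lateral roots. The part of the filter in this margin was not tested.

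Of the genes at the floor in control, 210 had at least 20 counts in both stage 4 libraries, and 65 of them had no count in either control library. The floor of 3 counts corresponds to 0.902 CPM on average in the control libraries. The mean level at stage 4 was 10.3-fold this floor for the median gene of the 210 (quartiles 6.54 and 18.6), and 258-fold for the gene with the highest value. The observed control counts were at or under the floor, and these folds include no counting error. These genes were chosen on the counts of the stage 4 and control libraries, and the other stages entered only through the filter on low counts. More than 3 counts in both libraries were found for 121 of the 210 (stage 1), 131 (stage 2), 195 (stage 3) and 188 (stage 5). At equal depth the numbers were 62, 74, 158 and 186 in the same order. Their median level was 1.52 and 1.51 CPM in the stage 1 libraries and 1.59 and 1.64 CPM in those of stage 2. Stage 3 had 5.73 and 4.67 CPM, stage 4 had 9.32 and 8.48 CPM, and stage 5 had 11.6 and 7.99 CPM. Most of these genes were therefore above the floor before stage 4, and their levels at stage 3 lay between those of stage 2 and stage 4.

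The genes called higher took up a much larger part of the transcripts at stage 4. They held 46.2% and 41.8% of the counts of all tested genes in the stage 4 libraries, against 15% and 13.5% in control. The genes called lower held 15.1% and 18.8% at stage 4, against 40.5% and 42% in control. These shares describe genes that were chosen on the same 4 libraries. In the 8 libraries of the other stages, which were not contrasted but did enter the filter, the scaling and the estimate of the spread, the risers held 22% and 21.6% (stage 1), 22.2% and 23.4% (stage 2), 37% and 32.8% (stage 3), and 48% and 44.9% (stage 5). The fallers held 35.1% and 34.7% (stage 1), 35.3% and 33.6% (stage 2), 23.6% and 26% (stage 3), and 10.9% and 14.8% (stage 5). In both sets the stage 3 libraries lay between those of stages 1 and 2 and those of stage 4, without overlap. The largest step between neighbouring stages was from stage 2 to stage 3.

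**Figure D3:**
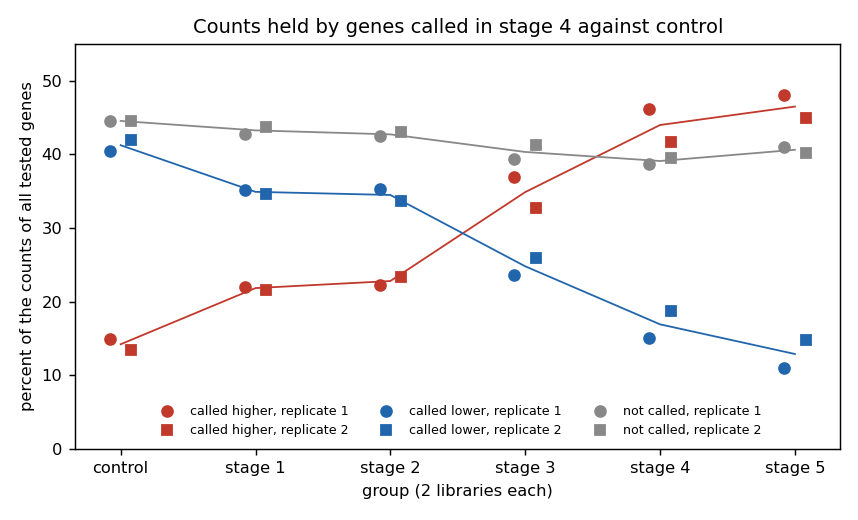
Percent of the counts of all tested genes (y) held by the genes called higher (red), called lower (blue) and not called (grey) in stage 4 against control, in each of the 12 libraries, ordered by stage (x). Circles are replicate 1, squares replicate 2 and lines join the means of 2 libraries; the red share is above 40% in both stage 4 libraries and under 16% in both control libraries.

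The summed loss in CPM rested on fewer genes than the summed gain, out of a smaller set of genes. Such sums weigh strongly expressed genes most and do not describe fold sizes. The 84 genes with the largest losses in CPM made up 50% of the summed loss of all 2487 fallers, and the 10 largest made up 17.4%. Among the 3553 risers, 163 genes made up 50% of the summed gain and the 10 largest made up 6.28%. The largest single loss was 5365 CPM and the largest single gain 2702 CPM. The median level of a faller was 20.4 and 25 CPM in the stage 4 libraries, against 46.8 and 49.3 CPM in control. That of a riser was 33.5 and 30.7 CPM at stage 4, against 10.4 and 9.86 CPM in control. The median over all tested genes was 14.1 and 14.4 CPM at stage 4, against 13.3 and 12.9 CPM in control.

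The stage 4 duplicates differed in how far they stood from control. Genes called higher were on median 0.13 log2 units higher in stage 4 replicate 1 than in replicate 2, and genes called lower were 0.23 lower in replicate 1. Over all tested genes this median was 0. Stage 4 replicate 1 thus stood farther from control than stage 4 replicate 2 in both directions. The control duplicates differed the same way, by medians of 0.05 for genes called higher and −0.13 for genes called lower (replicate 1 minus replicate 2). The median absolute log2 difference between duplicates, over all tested genes, was 0.245 at stage 4, against 0.401 in control, whose second library was the shallower one. At least a 2-fold difference between duplicates was found for 5.74% of the tested genes at stage 4, against 12.1% in control.

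Calls were also made with 1 library of each group and looked up in the other pair, with the spread taken from the duplicates of the other stages. Calls from replicate 1 gave 2603 risers, of which 97.7% were higher in stage 4 replicate 2 than in control replicate 2, and 1655 fallers, of which 88.9% were lower. Over all genes tested in that fit, 52% were higher and 47.2% lower in the replicate 2 pair. Calls from replicate 2 gave 2196 risers, of which 97.5% were higher in the replicate 1 pair, and 973 fallers, of which 95.5% were lower. The direction of a called gene was thus found again in the unused libraries for nearly all risers and for most fallers. Since the labels do not say that the duplicates came from separate batches of plants, this may show technical agreement only. On the log2(CPM + 1) scale, the median difference of the risers called from replicate 1 was 1.84 in the libraries used and 1.6 in the unused pair, and that of the fallers was −1.48 and −0.87. For calls from replicate 2 these values were 1.96 and 1.78 for the risers, and −1.32 and −1.02 for the fallers.

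The 2 risers and the 2 fallers with the lowest adjusted p-values are described one by one, out of 3147 risers and 2357 fallers that also had a mean of at least 20 counts and no overlap between the groups. Their functions are not given in the tables used here. Solyc02g078100, whose tag places it on chromosome 2, had 466 and 496 CPM in the stage 4 libraries, against 2.44 and 1.14 CPM in control. The control values rest on 11 and 3 counts, the second at the floor. The log2 change was 7.94 ± 0.306 (SE; adjusted p-value 1.11e-07, edgeR). The gene was almost silent in control, and its stage 4 duplicates lay close together. Stage 1 averaged 23.5 ± 5 CPM, stage 2 71.8 ± 3.7, stage 3 316 ± 19.9 and stage 5 489 ± 16.7 (SD, n = 2 each). The level at stage 4 (481 ± 21.2 CPM) exceeded that at stage 3 by 0.6 ± 0.199 log2 units (SE), which did not pass the threshold over all genes (adjusted p-value 0.328, edgeR), and the stage 5 level differed from it by 0.02 ± 0.199.

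Solyc06g007610, on chromosome 6, had 563 and 477.5 CPM at stage 4, against 5.32 and 3.41 CPM in control, from 24 and 9 counts. Its log2 change was 6.84 ± 0.332 (SE; adjusted p-value 8.49e-07, edgeR). The groups were far apart relative to the spread within either. Stage 1 averaged 15.6 ± 2.34 CPM, stage 2 49.2 ± 6, stage 3 259 ± 71.9 and stage 5 629 ± 119 (SD, n = 2 each). Stage 4 was 1.01 ± 0.239 log2 units (SE) above stage 3 (adjusted p-value 0.164, edgeR), and stage 5 was 0.27 ± 0.237 above stage 4 (adjusted p-value 0.583, edgeR). Neither step passed the threshold. The deposited counts of both risers were whole in every library.

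Solyc09g098620, on chromosome 9, fell to 10.5 and 10.6 CPM at stage 4, against 59.4 and 45.5 CPM in control, from 53 and 63 counts at stage 4 and 268 and 120 in control. The log2 change was −2.32 ± 0.245 (SE; adjusted p-value 2.72e-05, edgeR). The stage 4 duplicates were nearly equal, and the control duplicates were well above them. Stage 1 averaged 72.3 ± 15.2 CPM, stage 2 70.7 ± 10.3, stage 3 30.8 ± 5.01 and stage 5 3.58 ± 0.213 (SD, n = 2 each). Stage 5 was at −1.57 ± 0.327 log2 units (SE) against stage 4, which did not pass the threshold (adjusted p-value 0.0898, edgeR). Of the 4 genes, Solyc09g098620 was the one whose step from stage 3 to stage 4 passed the threshold. The gene was chosen on the same stage 4 libraries, so the test of that step is no separate support. That step was −1.54 ± 0.243 log2 units (SE; adjusted p-value 0.044, edgeR). That call was lost without any 1 of the 4 libraries of stages 3 and 4, at adjusted p-values of 0.246 and 0.257 without stage 3 replicates 1 and 2 and 0.435 and 0.0824 without stage 4 replicates 1 and 2.

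Solyc03g079880, on chromosome 3, had 1536 and 1817 CPM at stage 4, against 6429 and 5943 CPM in control. The log2 change was −1.88 ± 0.2 (SE; adjusted p-value 2.8e-05, edgeR). It stayed strongly expressed at stage 4, unlike the other named faller. Stage 1 averaged 2396 ± 431 CPM, stage 2 3670 ± 75.9, stage 3 2869 ± 210.2 and stage 5 707 ± 115 (SD, n = 2 each). The level at stage 1 was thus under that at stage 2, whereas Solyc09g098620 had its lower levels from stage 3 on. Solyc03g079880 changed by −0.77 ± 0.195 log2 units (SE) from stage 3 to stage 4 (adjusted p-value 0.2, edgeR). From stage 4 to stage 5 it changed by −1.25 ± 0.197 (adjusted p-value 0.074, edgeR), the smallest adjusted p-value of that comparison. Neither of these changes passed the threshold. Some of its counts were fractional, as happens when a quantifier splits reads with a similar gene, and its absolute level is uncertain for that reason.

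**Figure D4:**
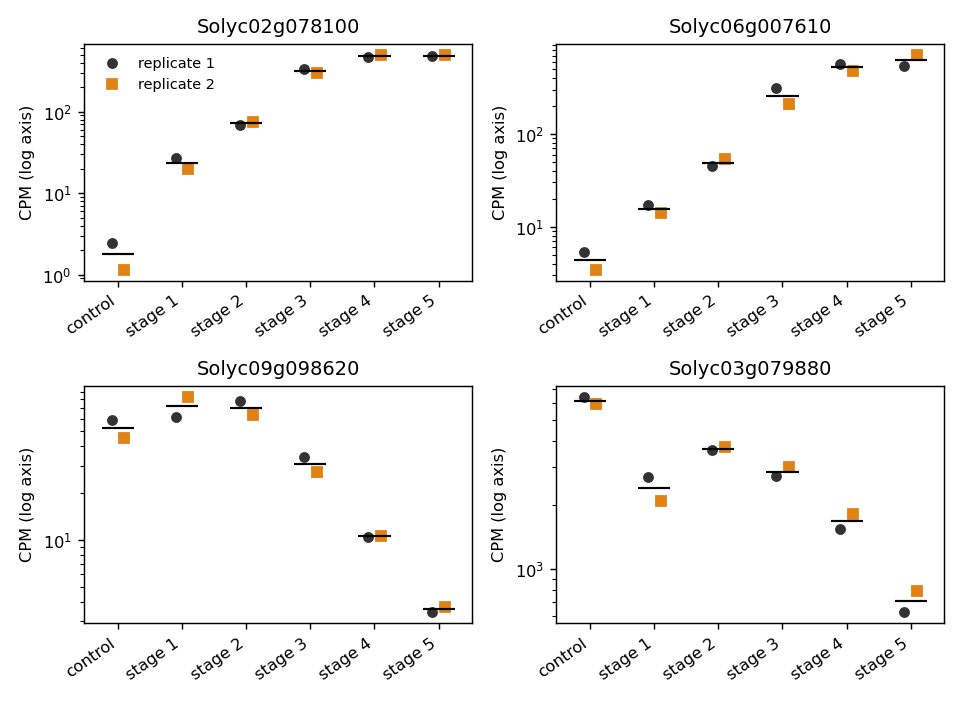
Level in CPM (y, log axis, a separate range in each panel) of the 4 named genes in each library, with the groups ordered by stage (x). Circles are replicate 1, squares replicate 2 and bars the mean of 2 libraries; at stage 4 both points lie above both control points for Solyc02g078100 and Solyc06g007610, and below both for Solyc09g098620 and Solyc03g079880.

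Stage 4 was tested directly against its neighbours in the series. Against stage 3, 16 genes passed the threshold (0.0872% of those tested), 10 of them higher (0.0545%) and 6 lower (0.0327%) at stage 4. Without adjustment, 1819 genes (9.91%) had a p-value under 0.05. The 10 genes that rose had means between 28.9 and 464 CPM at stage 4, against 3.47 and 134 CPM at stage 3, and log2 changes from 1.61 to 3.2 (edgeR adjusted p-values from 0.000871 to 0.0396). The 6 that fell had means between 4.29 and 689 CPM at stage 4, against 16.7 and 1730 CPM at stage 3, with log2 changes from −1.94 to −1.33 (edgeR adjusted p-values from 0.0161 to 0.0449). This number and its balance depended on the test and the filter: DESeq2 called 174 genes (76 higher, 98 lower), and edgeR with no filter called 757 (287 higher, 470 lower). It was 7 and 2 without stage 3 replicates 1 and 2, and 3 and 50 without stage 4 replicates 1 and 2, the last with 19 higher and 31 lower. Stage 5 against stage 4 gave 0 calls in edgeR's test (0% of those tested; smallest adjusted p-value 0.074), while 3230 genes (17.6%) were under 0.05 before adjustment. DESeq2 called 553 genes, edgeR with no filter 1430 and edgeR with 10 counts in every library 39. Leaving out stage 4 replicate 1 gave 94 calls in edgeR, and leaving out stage 5 replicate 1 gave 1.

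These comparisons share the stage 4 libraries with stage 4 against control, so their values are set side by side only. The genes called higher against control had a median log2 change of 1.72 against control, 0.33 from stage 3 to stage 4 and 0.15 from stage 4 to stage 5. The genes called lower had medians of −1.14, −0.46 and −0.31. All tested genes had medians of −0.01, 0 and −0.02. The genes were chosen on the stage 4 libraries, so no share of the difference from control is read from these medians.

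A pair of comparisons that contrast neither stage 4 nor control libraries gave the same genes a second reading. All libraries shared the filter, the scaling and the estimate of the spread. In stage 5 against stage 3, 3119 genes were called (17% of those tested); 1281 were higher (6.98% of those tested) and 1838 lower (10%). Of the stage 4 risers, 842 were among those higher (23.7% of the risers and 65.7% of the 1281), and 55 were among those lower. Of the stage 4 fallers, 986 were among those lower (39.6% of the fallers and 53.6% of the 1838), and 7 were among those higher. The median log2 change from stage 3 to stage 5 was 0.48 for the risers, −0.79 for the fallers, −0.05 for the genes not called and −0.01 for all tested genes. Genes that differed from control at stage 4 thus moved on, by their medians, in the same direction between stages 3 and 5.

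**Figure D5:**
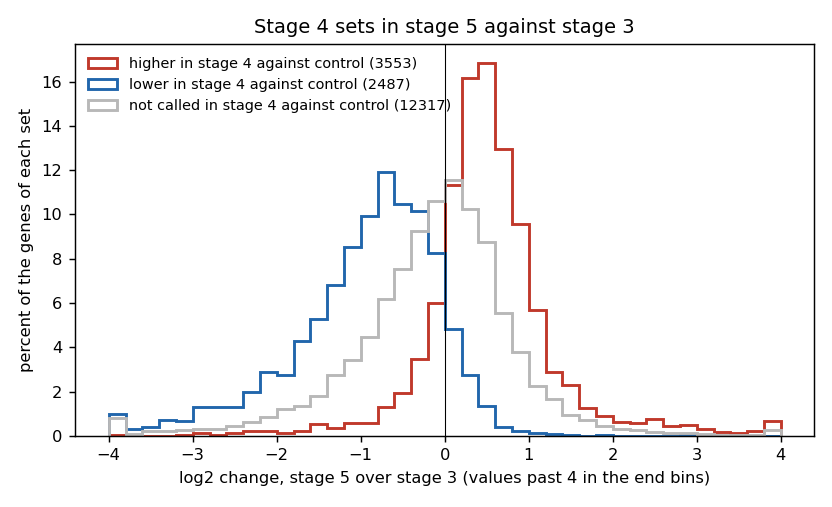
Distribution of the log2 change of stage 5 over stage 3 (x) for genes called higher (red), called lower (blue) and not called (grey) in stage 4 against control, as percent of the genes of each set (y). The red outline is centred above 0 (median 0.48) and the blue outline below it (median −0.79), while the grey one is centred near 0 (median −0.05).

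In stage 3 against stage 2, 687 genes were called (3.74% of those tested); 472 were higher (2.57% of those tested) and 215 lower (1.17%). The stage 4 risers held 463 of the 472 (98.1%), which was 13% of the risers. The fallers held 123 of the 215 (57.2%), which was 4.95% of the fallers. The median log2 change from stage 2 to stage 3 was 0.61 for the risers, −0.37 for the fallers and 0.01 for all tested genes. Rises between stages 2 and 3 were thus almost all among the genes higher at stage 4 than in control, and falls were so to a lesser extent.

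By group means, stage 5 was the highest of the 6 groups for 2193 of the 3553 risers (61.7%) and stage 4 for 1067 (30%). Over all tested genes these shares were 31.2% and 11.4%. Stage 5 was the lowest group for 1730 of the 2487 fallers (69.6%) and stage 4 for 620 (24.9%), against 32.3% and 10.5% of all tested genes. Control was the highest group of 0 risers and the lowest of 0 fallers, since both sets were chosen on stage 4 against control. The shares over all tested genes are therefore not a like base for these sets. Stage 5 also held the shallowest library, and its duplicates differed most (median absolute log2 difference 0.423). Each mean rests on 2 libraries, and edgeR's main test called no gene between stages 4 and 5. The order of the groups is thus a description.

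Called genes were spread over the genome. The number after Solyc in a tag is that of its chromosome. Between 17.9% (chromosome 12) and 21% (chromosome 6) of the tested genes of a chromosome were higher at stage 4, and between 12.2% (chromosome 11) and 14.7% (chromosome 5) were lower. Tags numbered 00, which hold sequence not placed on a chromosome, had few calls. Of 175 tested, 4 were higher (2.29%) and 3 lower (1.71%). Fractional counts were found for 88.6% of these tags, against 16.7% of all tested genes, and their median level (17.5 CPM) was not under that of the chromosomes (13.5 to 16.4 CPM). Some tags numbered 00 had the same level and the same changes as one another, such as Solyc00g500046 and Solyc00g500128. The 175 are therefore not all separate readings. Among all genes called, 17.9% of the risers and 17.9% of the fallers had fractional counts.

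The calls of neighbouring genes were compared by the order of the tags. When a gene was called higher, the next tested tag on the same chromosome was also higher in 22.7% of 3550 cases, against 19.3% over all such pairs. When a gene was called lower, the next was also lower in 16% of 2486 cases, against 13.6% over all pairs. Runs of 5 or more successive tested tags with the same call held 54 risers, in 10 runs, and 15 fallers, in 3 runs. How many such runs would arise with calls placed at random was not computed, so no clustering is read from these numbers. The longest, chosen after its values were seen, was a run of 7 risers on chromosome 3. Its summed level was 325 and 214 CPM in the stage 4 libraries, against 4.66 and 2.28 CPM in control. The sum was 7.25 and 9.21 CPM (stage 1), 4.24 and 4.9 CPM (stage 2), 34.6 and 36.1 CPM (stage 3), and 244 and 268 CPM (stage 5). Both stage 1 libraries were above both control libraries, the stage 2 sums were under those of stage 1, and the stage 4 libraries were far above those of stage 3. All 7 of its genes had fractional counts, so the level of any single one is uncertain.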

How the data were processed

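Gene expression was measured in 12 libraries prepared, per the labels' protocols, for sequencing from the 3′ end of transcripts (QuantSeq). The deposited table holds estimated counts per gene for 34027 locus tags. Salmon 1.3.0 and DESeq2 are named in the submitters' processing notes, without their roles; the build and annotation are not given in the sources used here. Of the values, 5.64% were not whole; they were rounded. Columns were matched to samples by name.

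Genes were kept with filterByExpr by group (18357), normalised with TMM factors and entered into the quasi-likelihood test of edgeR 4.0.16 (with limma 3.58.1, under R 4.3.3), in 1 model of the 6 groups, with 6 residual degrees of freedom for the 12 libraries. p-values were adjusted by Benjamini-Hochberg over all tested genes and called under 0.05. The standard error is the log2 change divided by the square root of F. DESeq2 1.42.0, its size factors, other filters, thinning, a replicate block, the 4 libraries alone and leaving out each library were the alternatives. Standard errors and SDs include the spread between these libraries, which may be technical. Detection floors, and the folds set against them, include no error, neither from counting nor from the spread between libraries. No pair of duplicates agreed within sampling noise (chi-square per degree of freedom from 6.33 to 12.5).

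The comparison and the naming rule were chosen with earlier results of these data known. With no table pairing tags with names, the rule takes the 2 risers and 2 fallers of lowest adjusted p-value among genes with a mean of at least 20 counts and no overlap between groups. The 41 gene and marker lists prepared could not be applied, since 0 tags matched.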

Additional observations from a re-analysis of the deposited data

Results flagged for a closer look

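The change of Solyc09g098620 against control was larger at stage 4 than at stage 3, and it is listed because the direct test of that difference passed the threshold. The gene was named for its low adjusted p-value in stage 4 against control. Both comparisons use the same stage 4 libraries, so the test against stage 3 is no separate support. The difference between stages 4 and 3 was −1.54 log2 units (adjusted p-value 0.044, edgeR), with both stage 4 libraries below both stage 3 libraries. Over 10 other settings it ran from −1.71 to −1.36, with adjusted p-values from 8.17e-06 to 0.435 (edgeR or DESeq2), and it was past the threshold in 4 of them. No group has more than 2 libraries, so single libraries could not be tested as outliers.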

How the results depend on the processing

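For stage 4 against control, the count of called genes stayed within 1.5 times 6040 under the 7 other settings, from 4390 (only the 4 libraries compared) to 6702 (no filter). Without each replicate it ranged from 3289 to 5333. The share of calls that were higher was 58.8%; without stage 4 replicate 1 it was 73%. No gene called both in the main setting and in another changed direction. With the replicate number as a block (replicate block) there were 6160 calls, 5887 of them shared; the number pairs nothing in the labels, and replicate differences correlated at 0.0691 between stage 4 and control and from −0.091 to 0.249 over the 15 pairs of groups, of which 9 were above 0. The counts for neighbouring stages depended on the setting. For stage 4 against stage 3 (16 genes) they were 174 with DESeq2 (76 higher, 98 lower), 757 with no filter (287 higher, 470 lower), 3 with 10 counts in every library, 42 with the replicate block and 34 after thinning, and 2 to 50 without each replicate. For stage 5 against stage 4 (0 genes) they were 553 with DESeq2, 1430 with no filter and 39 with 10 counts in every library, and 0 to 94 without each replicate. The cause was not tested. The 4 named genes kept their direction and call in every setting that tested them; with 10 counts in every library, Solyc03g079880 alone was tested. The genes shared with stage 3 against stage 2 were 866 (no filter) in place of 463 risers, and 253 (DESeq2) and 475 (no filter) in place of 123 fallers. Settings for comparisons without shared libraries, and the calls from 1 library a group, were chosen after seeing the data. The depth of the control libraries limits what can be said of genes near 3 counts.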
